A study of Homo sapiens with 14 samples.

Results

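Zinc finger genes of human chromosome 19 were followed across 14 RNA-seq libraries of MGE-like progenitors, cells differentiated in culture toward the medial ganglionic eminence, a ventral forebrain region that gives rise to cortical interneurons. The starting cells were H9, a human embryonic stem cell line. The set holds 150 genes of the 58051 in the table. The members were chosen by symbol, position and level: they are the protein-coding genes on chromosome 19 whose symbol is ZNF followed by digits and whose mean normalized read count over the 14 libraries was 50 or more. Chromosome 19 carries 240 such genes in the table at any level, of which 90 had a mean under 50 and 4 of those were at 0 in all libraries. The choice was made with 1 question in view, which of these genes are lost in a single cell line, and ZNF558 was already known to be low in both engineered lines. The level of ZNF558 is therefore a description and carries no test.

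All libraries come from H9 cells taken at day 25 of differentiation. All cultures received SB431542 (2 µM) and LDN193189 (200 nM), blockers of TGF-β and BMP signalling, on days 0 to 6, and SHH (250 ng/mL) with purmorphamine (0.3 µM) on days 10 to 17. The 4 groups were wild type (WT, n = 3), Ctnnb1 knockout (KO, n = 5), inducible Ctnnb1 overexpression left uninduced (OE without Dox, n = 3), and that genotype given doxycycline (Dox) at 0.1 µg/mL on days 17 to 25 (OE with Dox, n = 3). They make up 3 lines, since both OE groups carry the same genotype, here called the OE line. The labels do not say how many clones stand behind KO or the OE line, what drives the transgene, or whether replicates are separate differentiations, so p-values measure the spread between these libraries, which may be technical. Dox was not given to WT, so effects of the drug and of the transgene cannot be told apart.

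Most zinc finger genes of chromosome 19 encode C2H2 zinc finger proteins in which a KRAB domain sits before a long array of fingers. The fingers bind particular DNA sequences, often in transposable elements, and the KRAB domain recruits the corepressor TRIM28, which brings in SETDB1, HP1 proteins and DNA methylation. The genes arose by repeated tandem duplication and lie in dense clusters. ZNF558 is known from human neural progenitors as a repressor of SPATA18, a gene of mitochondrial quality control.

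The stretches before the RefSeq starts of 5 of these genes are shown. Of these genes 3 (ZNF558, ZNF229, ZNF583) were far below WT in every library of both engineered lines. ZNF180, the neighbour of ZNF229, was present throughout, and ZNF528 was lowest in the OE line. Each stretch is the 250 bases before the RefSeq start of the gene (GRCh38.p14), read in the direction of transcription, with every CpG dinucleotide in capitals. The gene spans given with the values are those of another annotation, GENCODE. In it ZNF583 begins farther upstream, so its stretch lies inside that span. Part of the stretch of ZNF229 lies inside its span too, as do the last few bases of those of ZNF558 and ZNF180. The stretches lie at chr19:8832305-8832554 (ZNF558, minus strand), chr19:44448473-44448722 (ZNF229, minus strand), chr19:56403764-56404013 (ZNF583, plus strand), chr19:44500523-44500772 (ZNF180, minus strand) and chr19:52397599-52397848 (ZNF528, plus strand).
ZNF558: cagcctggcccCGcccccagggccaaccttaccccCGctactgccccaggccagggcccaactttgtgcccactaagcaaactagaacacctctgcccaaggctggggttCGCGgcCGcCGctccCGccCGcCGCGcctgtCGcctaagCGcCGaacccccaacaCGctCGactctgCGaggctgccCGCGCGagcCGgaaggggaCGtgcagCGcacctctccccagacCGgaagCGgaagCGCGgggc
ZNF229: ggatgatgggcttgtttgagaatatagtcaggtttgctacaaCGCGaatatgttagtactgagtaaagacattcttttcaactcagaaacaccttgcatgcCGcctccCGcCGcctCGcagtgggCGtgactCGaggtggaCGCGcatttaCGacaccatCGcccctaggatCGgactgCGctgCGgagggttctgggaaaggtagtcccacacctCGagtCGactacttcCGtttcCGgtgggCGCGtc
ZNF583: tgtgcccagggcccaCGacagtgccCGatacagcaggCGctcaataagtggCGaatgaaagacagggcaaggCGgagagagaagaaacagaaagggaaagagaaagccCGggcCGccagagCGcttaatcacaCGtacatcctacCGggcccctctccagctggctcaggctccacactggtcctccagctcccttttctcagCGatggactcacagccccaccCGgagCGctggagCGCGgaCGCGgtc
ZNF180: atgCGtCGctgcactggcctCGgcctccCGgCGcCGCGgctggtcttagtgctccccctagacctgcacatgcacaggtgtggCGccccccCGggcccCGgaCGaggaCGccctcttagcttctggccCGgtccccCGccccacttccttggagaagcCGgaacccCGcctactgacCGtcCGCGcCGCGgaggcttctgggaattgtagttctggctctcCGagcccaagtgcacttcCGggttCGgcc
ZNF528: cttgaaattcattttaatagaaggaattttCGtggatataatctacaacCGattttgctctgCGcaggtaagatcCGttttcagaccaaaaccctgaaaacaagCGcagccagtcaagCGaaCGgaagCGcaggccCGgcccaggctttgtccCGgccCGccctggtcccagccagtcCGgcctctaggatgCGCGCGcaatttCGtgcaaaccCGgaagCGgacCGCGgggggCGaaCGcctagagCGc

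The number of CpG, counted as the letters CG and the same on both strands, was 26 for ZNF558, 21 for ZNF229, 17 for ZNF583, 24 for ZNF180 and 23 for ZNF528. Among the 138 members with an entry in the promoter table the number ran from 3 to 32, with a median of 16. Over all 27305 promoters of this length the median was 11, 93.6% held at least 1 CpG, and 19.2% held as many as ZNF558 or more. The promoter of ZNF180, a gene present in every library, thus holds nearly as many CpG as that of ZNF558. Methylation was not measured.

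Recovered reads assigned to genes numbered 5233270 to 5639725 per library, and a count of 0 allows up to 3 reads, a normalized count of 2.60 to 2.84. CTNNB1, the targeted gene, ranged over 3248 to 4392 for WT, 2090 to 2779 for KO and 3084 to 3633 for OE without Dox, and was at 23861 to 31290 for OE with Dox, so transcript was still abundant in KO. The MGE regulator NKX2-1 was present in every library (274 at the lowest). Of 6 pluripotency markers, POU5F1 and NANOG were at 1.85 or less in all libraries, TDGF1 at 12.1 or less and L1TD1 at 31.3 or less. The other markers were present in every library, LIN28A at 72.7 to 550 and DPPA4 at 52.5 to 451. Members had mean levels of 50.7 to 859.5 with a median of 113, and their median canonical-transcript GC content was 42.0% against 48.0% for all tested genes with a value.

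ZNF558 (ENSG00000167785, hg38 chromosome 19, 8806170 to 8832314, minus strand) was the 1 member that was low in a line. In WT its normalized read counts were 260.3, 271 and 246. For KO they were 19.4, 15.1, 41.6, 30.5 and 0, for OE without Dox 16.5, 7.40 and 0, and for OE with Dox 15.7, 25.1 and 2.77. Every engineered library lay below every WT library, while the 3 engineered groups overlapped one another. The mean was 259 ± 12.4 (SD, n = 3) for WT, 21.3 ± 15.7 (n = 5) for KO, 7.95 ± 8.24 (n = 3) for OE without Dox and 14.5 ± 11.2 (n = 3) for OE with Dox. Relative to WT these are 0.082, 0.031 and 0.056. The engineered levels rest on few reads, 115 over the 5 KO libraries, 26 over OE without Dox and 47 over OE with Dox, against 862 over WT.

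SPATA18 (ENSG00000163071, hg38 chromosome 4, 52051304 to 52097299), the gene that ZNF558 is known to repress, was higher in the engineered lines. It stood at 52.1, 60.8 and 76.2 for WT, at 153 to 205 in the 5 KO libraries, at 129.9, 159 and 137 for OE without Dox, and at 92.3, 109 and 138 for OE with Dox. All 11 engineered libraries lay above all 3 WT libraries. The log2 fold on the log2(value + 1) scale was 1.47 for KO against WT (SE 0.17, adjusted p = 9e-06), 1.17 for OE without Dox against WT (SE 0.19, adjusted p = 0.0012) and 0.83 for OE with Dox against WT (SE 0.19, adjusted p = 0.0038), all from limma with Benjamini-Hochberg adjustment over 17102 genes. These 3 comparisons share the WT libraries. Whether the level of ZNF558 sets that of SPATA18 in these cells was not tested.

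**Figure D1:**
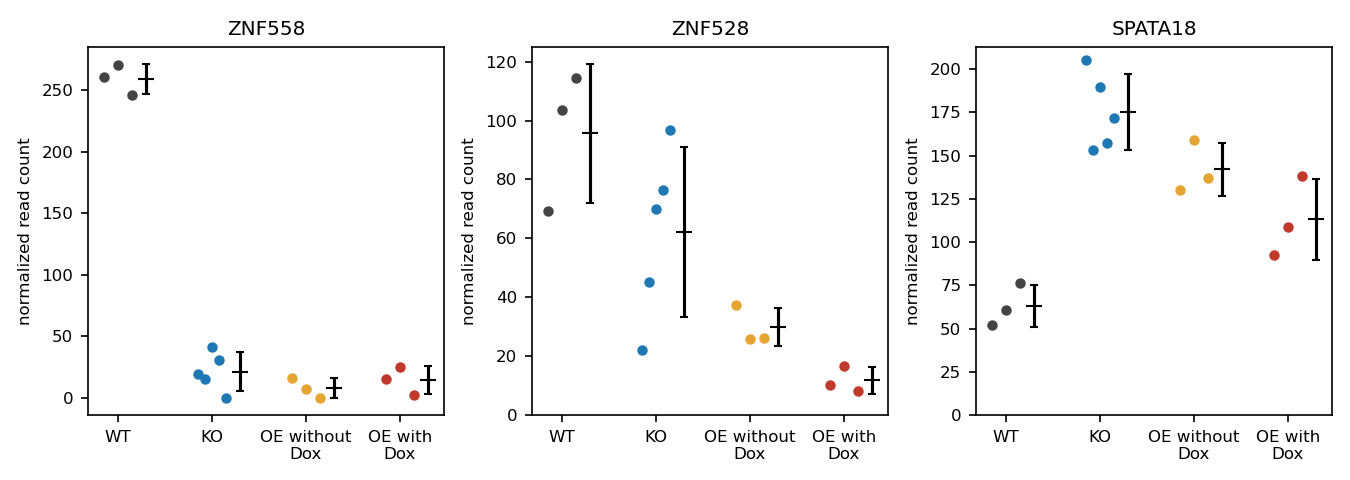
Normalized read counts (linear axis) of ZNF558, ZNF528 and SPATA18 in each library by group, with the mean ± SD beside the points. ZNF558 is 246 or more in the 3 WT libraries and 41.6 or less in the other 11, and SPATA18 is 76.2 or less in WT and 92.3 or more in the others.

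A member was counted as lost in a line where every library of that line was at 10 or less and every library of another line at 50 or more. By this rule 0 of 150 members were lost in any line, and 14 of 10557 protein-coding genes with a mean of 50 or more were (0.133%), among them 0 of the 169 ZNF genes of other chromosomes. ZNF558 was not counted as lost because its highest engineered library stood at 41.6. A wider rule counted a member as low in a line where the line's highest library was under 0.2 times the lowest library of another line, which 1 of 150 members met, against 0.549% of the 10557 genes. Relaxing the ratio to 0.5 added no member, and at 0.1 none was left.

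The other members lay nearer to their WT level. In KO, 149 of 150 members had a mean between 0.5 and 2 times that of WT, with ZNF558 the exception. The ratios of the next lowest were 0.599 (ZNF470) and 0.649 (ZNF528), the median was 1.132 and the highest 1.758 (ZNF554). In the OE line as a whole 146 of 150 lay within those bounds, with ZNF528 at 0.217 and ZNF470 at 0.411 next to ZNF558. ZNF473, which takes part in the processing of histone transcripts, was among the steadiest: its group means differed by 1.07 times, from 133 ± 3.34 in OE with Dox to 143 ± 8.28 in KO. The member of highest mean, ZNF146, which has fingers but no KRAB domain, stood at 743 ± 122 for WT, 921 ± 131 for KO, 878 ± 115 for OE without Dox and 854 ± 209 for OE with Dox. Per kilobase of exon the mean level over the 14 libraries was 207 for ZNF146 and 8.32 for ZNF558.

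**Figure D2:**
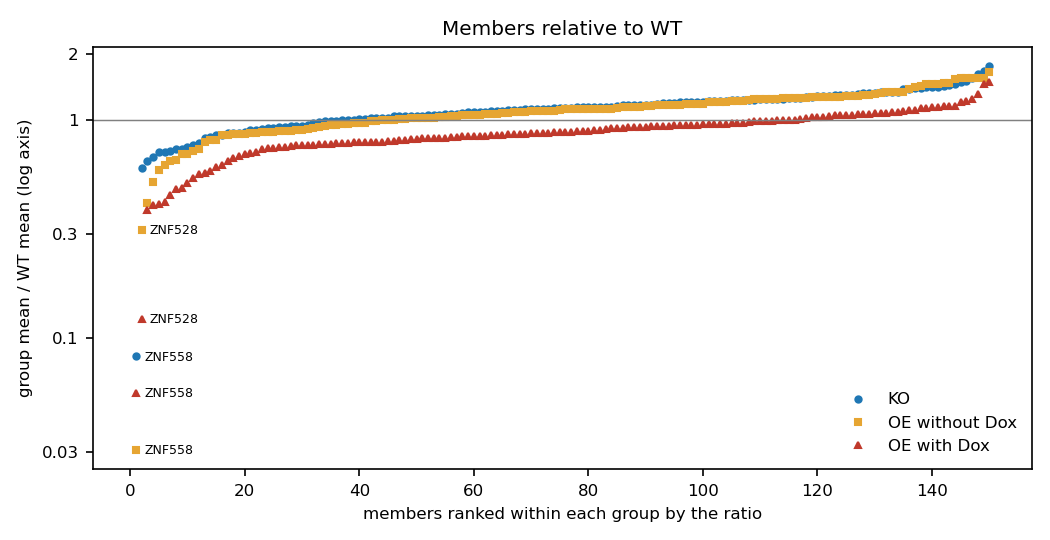
The 150 members ranked by the ratio of their group mean to the WT mean (log axis), with 1 series each for KO, OE without Dox and OE with Dox. ZNF558 is lowest in each of the 3 series, at 0.082, 0.031 and 0.056, and ZNF528 stands apart in both OE groups, at 0.312 and 0.123.

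The mean of 50 leaves out genes that were lost. A gene present only in the 3 WT libraries needs a high WT level to reach a mean of 50 over 14 libraries, and ZNF558 did so at 67.9. The genes just inside the threshold were ZNF446 at 50.8 and ZNF468 at 50.7, and those just outside were ZNF837 and ZNF816, both at 49.3. Without the WT libraries 7 members would fall under 50: ZNF558, ZNF528, ZNF470, ZNF880, ZNF90, ZNF626 and ZNF468. Their levels relative to WT are given as descriptions with no test, since the WT libraries brought them into the set. Of the 90 chromosome 19 ZNF genes under the threshold, 1 was lost in a line (ZNF229) and 8 were low in the OE line, 5 of them in KO as well. Of these 5, ZNF471 reached no more than 2.60 in WT itself. Neither ZNF471 nor ZNF439, another of the 5, reached the level needed for testing. Among 3003 tested protein-coding genes with a mean under 50, 0.566% were lost and 2.33% were low in a line. Which genes are described next was decided after their values were seen, so they carry no test.

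ZNF229 (ENSG00000278318, hg38 chromosome 19, 44417519 to 44448578, minus strand) was at 67.2, 78.7 and 59.8 in WT. In KO it was at 1.85, 0.944, 2.83, 1.80 and 0, for OE without Dox at 0.914, 0.925 and 0, and for OE with Dox at 0 in all 3 libraries. That is 228 reads for WT, 8 for KO, 2 for OE without Dox and 0 for OE with Dox. With 3 reads per library as the floor, WT was at least 24.7-fold higher than OE with Dox. Its neighbours on both sides were present in every library. ZNF285 had means of 64.2 ± 20.3 for WT, 82.9 ± 13.0 for KO, 99.9 ± 11.5 for OE without Dox and 49.7 ± 8.26 for OE with Dox, and ZNF180 had 138 ± 17.7, 149 ± 5.58, 149 ± 32.1 and 121 ± 21.9.

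A run of adjacent genes in 19q13.43 showed the same pattern. From ZNF542P, a transcribed pseudogene, through ZNF582 and ZNF583 to ZFP28, 4 expressed genes were near 0 in both engineered lines. ZNF583 (ENSG00000198440, hg38 chromosome 19, 56397966 to 56436035) was at 54.0, 46.5 and 41.6 for WT, at 0 to 1.89 for KO, at 0, 0.925 and 0 for OE without Dox and at 1.85, 5.58 and 0 for OE with Dox. ZFP28 (ENSG00000196867, 56538948 to 56556808), whose symbol places it outside the set, was at 96.6, 99.2 and 72.8 in WT and at 4.49 or less in every engineered library. ZNF582 was at 16.5 to 29.5 in WT and 1.89 or less elsewhere, and ZNF542P at 59.0 to 77.1 in WT and 6.29 or less elsewhere. The pattern did not begin at ZNF542P, which starts at 56373250. ZSCAN5A, which ends before it at 56368383, was at 26.9 to 38.8 in WT and 2.77 or less elsewhere. ZNF582 shares 37.4% of its exonic 50-base words with other genes, so part of its reads may be counted elsewhere, while ZNF583 shares 0.329%.

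The members next along the chromosome, ZNF470 and ZNF71, were reduced but present. ZNF470 (ENSG00000197016, 56567468 to 56588911) was at 97.5, 91.2 and 104.8 for WT, at 53.0 to 64.2 for KO, at 70.4, 25.0 and 26.3 for OE without Dox and at 59.1, 39.0 and 21.2 for OE with Dox. ZNF71 was at 238 to 311 for WT, at 156 to 268 for KO, at 232, 94.4 and 87.0 for OE without Dox and at 176, 100.4 and 83.0 for OE with Dox. For both genes replicate 1 of each OE group was the highest of its group.

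A second stretch, in 19p13.2, held genes at low levels beside genes near their WT level. ZNF441 was at 35.03, 109.9 and 58.9 in WT, at 42.5, 5.67, 14.2, 8.98 and 8.95 in KO and at 5.58 or less in all 6 libraries of the OE line. ZNF440 was at 72.9 to 88.4 in WT, 6.29 to 49.9 in KO and 1.83 to 12.03 in the OE line, and ZNF69 at 44.2 to 50.2, 10.2 to 26.8 and 1.86 to 6.48. For these 3 genes KO lay between WT and the OE line in its mean. ZNF823, which precedes ZNF441, was at 32.2 to 39.0 in WT, 28.6 to 45.3 in KO and 27.2 to 40.9 in the OE line. ZNF136, a member farther along, was at 75.1 to 89.0, 82.3 to 96.1 and 60.8 to 92.4. Low levels were thus not shared by the whole stretch.

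**Figure D3:**
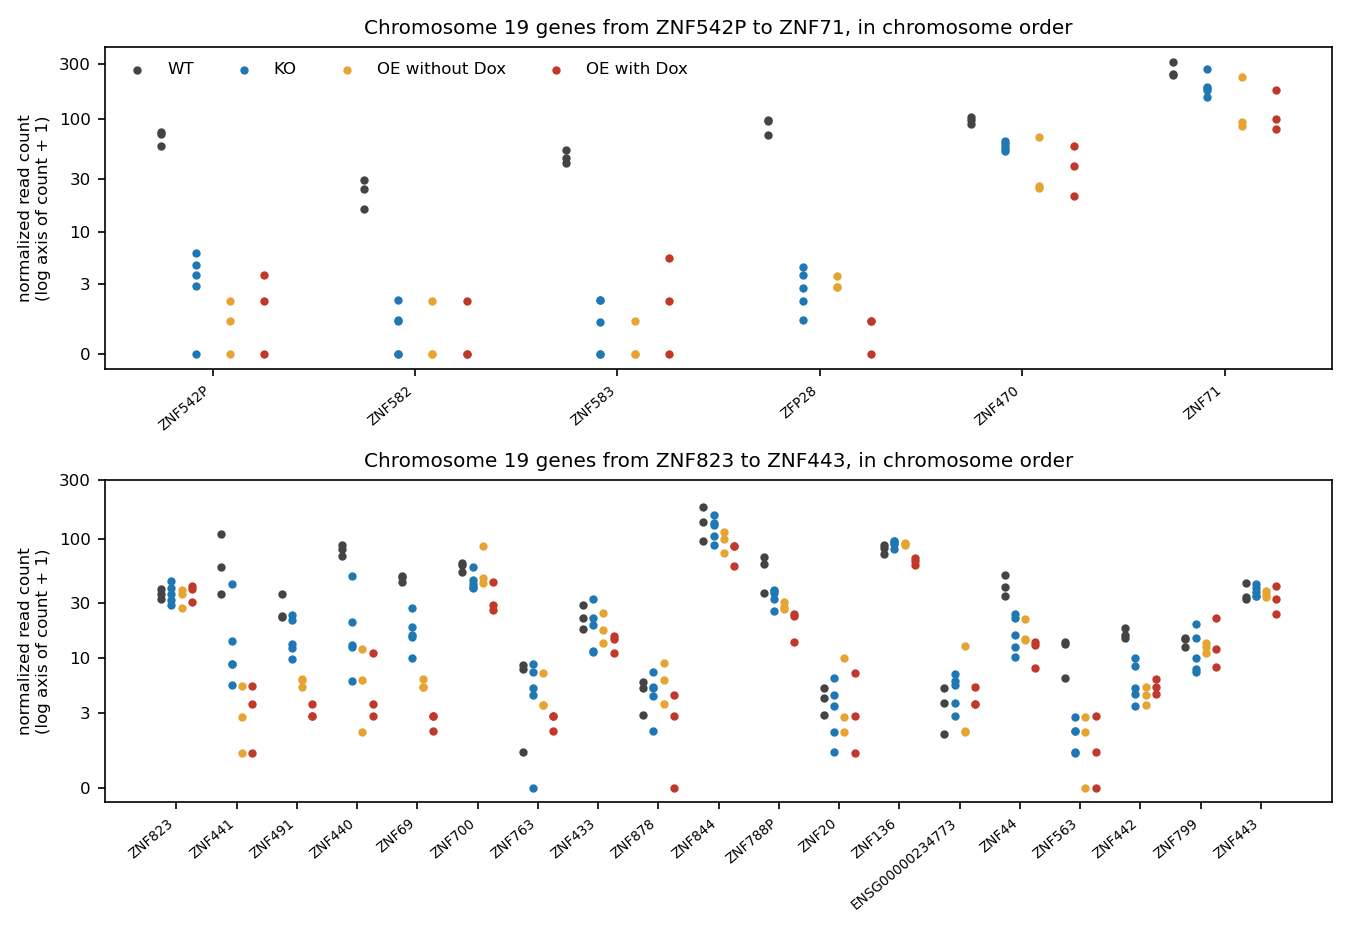
Normalized read counts (log axis of count + 1) per library for genes in chromosome order, from ZNF542P to ZNF71 in the upper panel and from ZNF823 to ZNF443 in the lower panel. ZNF542P, ZNF582, ZNF583 and ZFP28 are at 6.29 or less in every engineered library, while ZNF823, ZNF136 and ZNF443 are at 24.2 or more in every library.

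Over all 13560 tested protein-coding genes, 17 were low in the OE line, 112 in KO and 13 in WT. Of the 17, 10 lie on chromosome 19 and 7 are chromosome 19 ZNF genes, which make up 212 of the 13560. Low in both engineered lines were 12 genes, 10 of them with ZNF, ZFP or ZSCAN symbols, and such symbols belong to 3.64% of the tested genes. On chromosome 19 these were ZNF558, ZNF229, ZSCAN5A, ZNF582, ZNF583, ZFP28 and ZSCAN1, and elsewhere ZNF37A, ZNF354C, ZNF736, CAT (catalase) and ANOS1 (an extracellular matrix protein). ZNF354C on chromosome 5 was at 149 to 202 in WT and at 10.97 or less in the engineered libraries, and ZNF37A on chromosome 10 at 78.0 to 101.3 and 8.33 or less. CAT was at 50.2, 78.7 and 96.2 in WT and at 0 in all 11 engineered libraries. No enrichment was tested, since these genes were singled out by the same rule after the pattern was known.

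**Figure D4:**
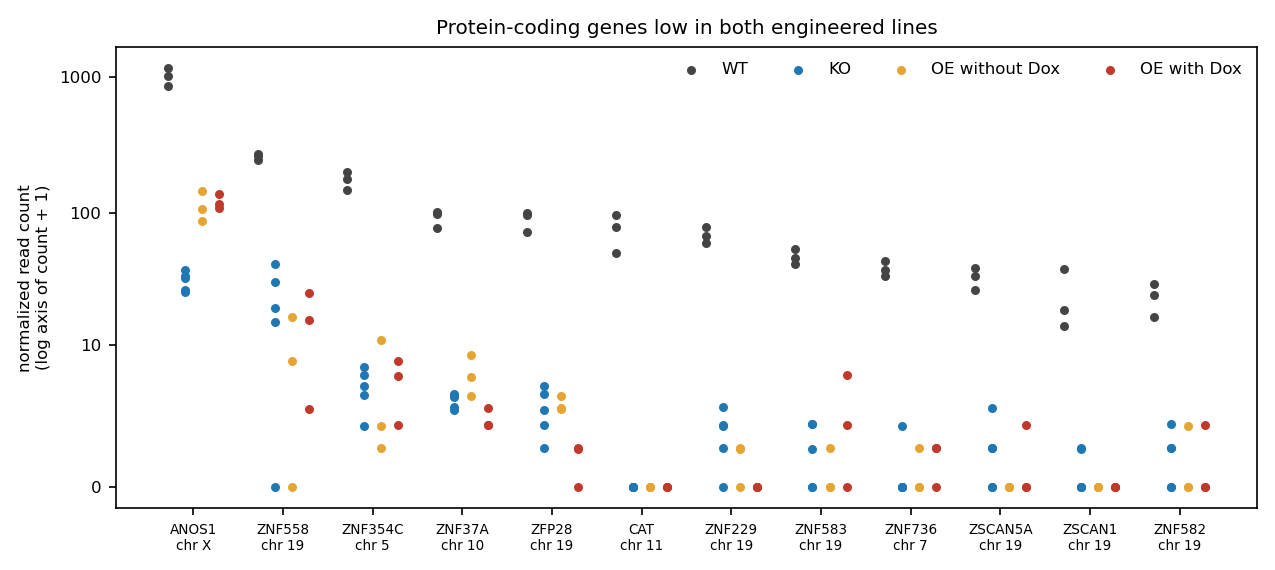
Normalized read counts (log axis of count + 1) per library of the 12 protein-coding genes low in both engineered lines, ordered by WT level, with the chromosome under each symbol. In each of the 12 genes every WT library lies above every engineered library, and CAT is at 0 in all 11 engineered libraries.

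The gene next to ZNF558 toward the chromosome end, ADAMTS10, a matrix protease, was higher in the engineered groups, at 108 ± 25.9 for WT, 214 ± 29.98 for KO, 219 ± 69.2 for OE without Dox and 271 ± 92.8 for OE with Dox (limma adjusted p = 0.0048, 0.025 and 0.00086 against WT). On the other side ZNF317, a member, was at 244 ± 27.0, 278 ± 66.4, 280.0 ± 32.9 and 251 ± 38.2. Both are the nearest tested protein-coding genes, and neither was low in any group.

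In KO against WT, 7 of 150 members rose (4.67%, against 6.64% of all 17102 genes) and 1 was lower (0.667%, against 7.15%). The lower one was ZNF558, whose level the choice of members used, so nothing is read from that count. The median log2 fold of the members was 0.17, beside -0.02 over all genes. In 16 members all KO libraries lay above all WT libraries (8.61% of all genes did so) and in 4 below (9.53% of all genes). The 4 include ZNF558 and ZNF470, which reach a mean of 50 only with WT, so that count is not read as a result. ZNF554 rose most, from 41.7, 42.9 and 45.0 in WT to 66.2 to 92.4 in the 5 KO libraries, with no overlap between groups (log2 fold 0.79, SE 0.18, limma adjusted p = 0.0048). ZNF536, a zinc finger gene of neural development without a KRAB domain, rose from 271 ± 55.5 to 452 ± 47.8 (0.75, SE 0.19, adjusted p = 0.012). ZNF121, ZNF154 and ZNF227 rose by 0.56, 0.49 and 0.58, and ZNF546 and ZNF548, which the rule for named genes leaves out, by 0.55 and 0.49. The count of 7 fell to 4 without WT replicate 1, KO replicate 1 or KO replicate 3, to 2 without WT replicate 3 and to 3 with no filter on low genes. ZNF554 passed under every alternative run. With no filter the calls of ZNF154 and ZNF227 were lost. The calls of ZNF121, ZNF154 and ZNF227 were also lost without WT replicate 3, those of ZNF227 and ZNF536 without WT replicate 1, that of ZNF154 without KO replicate 1 and that of ZNF227 without KO replicate 3.

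The same libraries differed in their cell type markers. The summed level of 9 dorsal telencephalon markers was 3000 to 3997 in WT and 517 to 835 in KO, with 6 of the 8 tested lower, and that of 10 MGE markers was 3018 to 3178 in WT and 10132 to 12089 in KO, with 5 higher and 1 lower. No marker of either list was at 0 in all libraries. The part of these differences in the members' levels was not tested, and fewer cells of a type and less RNA per cell cannot be told apart in such bulk libraries. KO replicate 1 had the highest summed level of the members, 26855, against 23269 to 24783 in the other KO libraries.

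In OE without Dox against WT, 1 member rose (0.667%, against 3.43% of all genes) and 3 were lower (2.00%, against 2.32%). The 3 were ZNF558, ZNF528 and ZNF470, all among the 7 members that reach a mean of 50 only with WT, and 0 of the other 143 were lower, so nothing is read from that count. ZNF528 (ENSG00000167555, hg38 chromosome 19, 52397849 to 52418412, plus strand) was at 69.1, 103.7 and 114 in WT and at 37.5, 25.9 and 26.3 in OE without Dox (log2 fold -1.63). ZNF470, whose values stand above, had a log2 fold of -1.42. The riser was ZNF418, from 97.6 ± 14.9 to 152 ± 21.1 (log2 fold 0.63, SE 0.18, limma adjusted p = 0.044). The ZNF418 call was lost in 10 alternatives, 8 of which left out 1 library each: WT replicates 2 and 3, KO replicates 4 and 5, each of the 3 OE without Dox libraries, and OE with Dox replicate 2. The members' median log2 fold was 0.15, beside -0.03 over all genes. The groups did not overlap in 27 members higher (11.6% of all genes) and 7 lower (11.4% of all genes). The 7 lower include ZNF558 and ZNF470, which reach a mean of 50 only with WT, so that count is not read as a result. Cell type markers differed here too: the summed MGE markers were 3018 to 3178 in WT and 7030 to 10992 in OE without Dox, with 4 of 10 higher, the 6 neuronal markers 7409 to 8993 and 13931 to 16104, with 3 higher, and the dorsal markers 3000 to 3997 and 1802 to 2427, with 1 of the 8 tested lower. Their part in the members' levels was not tested.

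No member passed the test between KO and OE without Dox. Here limma called 0 of 150 members in either direction, and edgeR and DESeq2 also called 0. Over all genes limma called 0.351% higher and 1.75% lower in KO. At an unadjusted p under 0.05 there were 11 members, beside 1482 of all 17102 genes. The groups did not overlap in 0 members higher and 1 lower in KO, beside 2.47% and 4.39% of all genes. Without OE without Dox replicate 1, 2 members were called higher in KO, and without KO replicate 1, 1 was.

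Doxycycline was the setting in which many members moved together. In OE with Dox against OE without Dox 34 of 150 members fell (22.7%, against 12.9% of all genes) and 0 rose (against 12.8% of all genes). At an unadjusted p under 0.05, 0 members rose, beside 3086 of all 17102 genes. Both edgeR and DESeq2 called 0 higher too, with 35 and 36 lower. The median log2 fold was -0.31 over the members and 0.02 over all genes, and 127 of 150 values were negative (84.7%, against 48.3% of all genes). In 62 members all 3 libraries with Dox lay below all 3 without, and 19.5% of all genes did so. Without the OE without Dox libraries 2 members, ZNF350 and ZNF571, would fall under the mean of 50. The counts of this comparison were not split for them. The falls were small: 3 of the 34 reached a fold of 2.

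ZNF681 was at 175, 206 and 174 without Dox and at 85.0, 88.3 and 77.4 with Dox (log2 fold -1.14, SE 0.23, limma adjusted p = 0.00098). ZNF285 went from 103, 109 and 87.0 to 51.7, 56.7 and 40.6 (-1.001, SE 0.23, adjusted p = 0.0034). In neither gene did the groups overlap, and both calls held under every alternative run. ZNF730 and ZNF90 fell by 0.89 and 0.87 on the log2 scale. Those calls were lost without OE without Dox replicate 3 or OE with Dox replicate 1, and singly without OE without Dox replicate 2 or OE with Dox replicate 3 (ZNF730) and without OE with Dox replicate 2 or with the GC correction (ZNF90). ZNF528 fell again, to 10.2, 16.7 and 8.30 with Dox (-1.31, SE 0.42, adjusted p = 0.026), a call lost without OE without Dox replicate 1, OE with Dox replicate 1 or OE with Dox replicate 3.

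Members with known roles in the control of mobile elements and of the zinc finger genes themselves were among those that fell, and were picked out after their values were seen. ZNF91, known as a repressor of SVA elements, was at 498, 516 and 349.9 without Dox and at 305, 357 and 208 with Dox, with overlap in 1 library of each group (log2 fold -0.66, SE 0.22, limma adjusted p = 0.03). ZNF274, which binds the 3' ends of zinc finger genes and recruits SETDB1, was at 337, 251 and 287 without Dox and at 233, 195 and 188 with Dox (-0.50, SE 0.15, adjusted p = 0.019). ZNF93, known as a repressor of LINE-1 elements, was at 67.7, 84.2 and 90.7 without Dox and 59.1, 58.6 and 69.1 with Dox, with a log2 fold of -0.37 that did not pass (adjusted p = 0.19). The calls of ZNF91 and ZNF274 were lost without OE without Dox replicate 1 or OE with Dox replicate 3, that of ZNF91 also without OE without Dox replicate 2 or with only the 2 compared groups in the fit, and that of ZNF274 without OE with Dox replicate 2 or with no filter on low genes.

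The falls differed in number between clusters, which is given as a description. Members were put in 1 cluster where neighbouring starts lay under 500 kb apart, which gave 19 clusters. All 5 members of the cluster from ZNF730 to ZNF254 (ZNF730, ZNF675, ZNF91, ZNF681, ZNF254) fell, with a median log2 fold of -0.86. In the adjoining cluster from ZNF101 to ZNF43 9 of 18 fell, with a median of -0.61 and 17 of 18 values negative. In the cluster of 31 at the long-arm end, from ZNF264 to ZNF446, 9 fell with a median of -0.32, and in that of 28 from ZNF175 to ZNF331 4 fell with a median of -0.22. The 10 members from ZNF628 to ZNF71 had a median of 0.02, with 4 negative values. That cluster had the highest median GC content of any cluster with at least 3 members, 67.3%, against 36.2% for the cluster from ZNF730 to ZNF254 and 37.2% for that from ZNF101 to ZNF43.

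**Figure D5:**
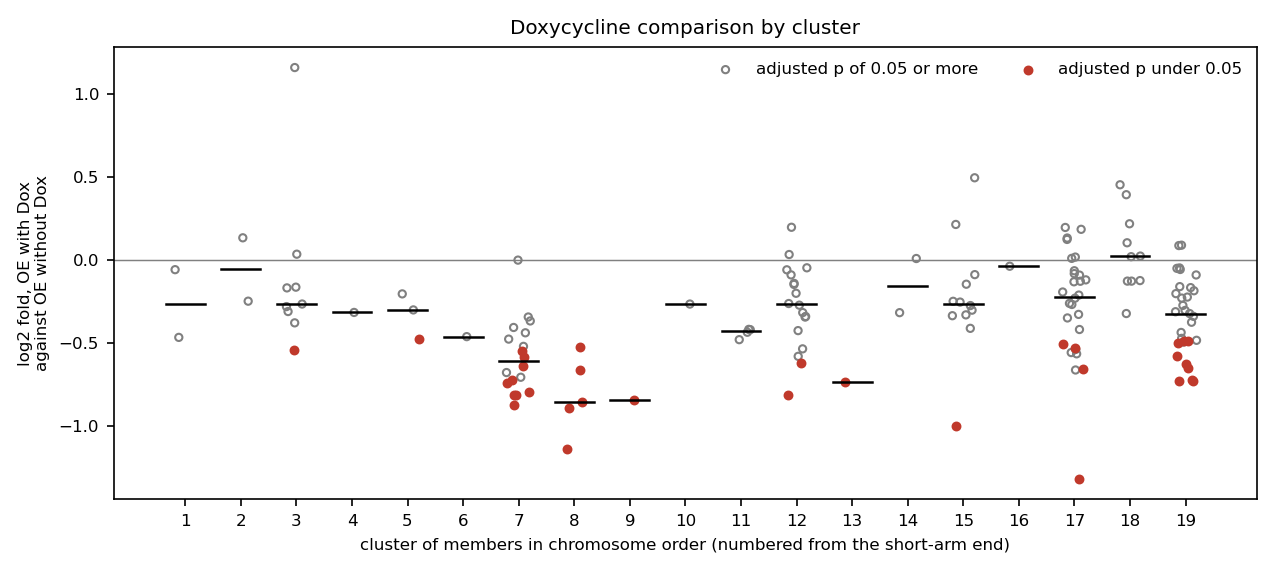
Log2 fold of each member in OE with Dox against OE without Dox, by cluster along chromosome 19 from the short-arm end, with filled points for adjusted p under 0.05 and a bar at each cluster's median. Clusters 7 (ZNF101 to ZNF43) and 8 (ZNF730 to ZNF254) have medians of -0.61 and -0.86, and cluster 18 (ZNF628 to ZNF71) has 0.02. The open point above 1 in cluster 3 is ZNF558, at few reads in both groups.

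Over the 150 members the log2 fold with Dox had a Pearson correlation of 0.39 with the GC content of the canonical transcript, and of 0.26 between neighbours in a cluster (131 pairs). Over 16996 genes with a GC value the correlation was 0.04. These values describe the same 6 libraries, and genes are not independent replicates. With each library corrected for GC content 32 members were lower, beside 2312 of 16996 genes.

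The count of 34 depended on single libraries. It was 35 with the replicate number as a block, 14 without OE without Dox replicate 1 and 17 without OE with Dox replicate 3. Over all genes 2454 of 17102, 1695 of 17013 and 1731 of 16826 were lower in these settings, in the same order. With either library left out the members' share was thus near that of all genes. The members' median log2 fold was then -0.24 and -0.27. The summed level of the members was 22662 to 25697 without Dox and 18161 to 19659 with Dox, and the 3 libraries with Dox were the lowest of all 14. OE without Dox replicate 1 had the highest sum of its group. ZNF genes of other chromosomes had 9 higher and 29 lower of 169, with a median log2 fold of -0.14, and other protein-coding genes of chromosome 19 had 53 higher and 67 lower of 564, with a median of 0.09.

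Cell type markers moved in this comparison too. The summed MGE markers were 7030 to 10992 without Dox and 1955 to 2857 with Dox, with 9 of 10 lower, and 6 neuronal markers were 13931 to 16104 and 3043 to 3675, with 5 lower. The summed mesenchymal markers were 217 to 1653 without Dox and 1406 to 6397 with Dox, with 5 of 6 higher, and TWIST1 had a mean under 10. Their part in the falls of the members was not tested.

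Cofactors of KRAB zinc finger proteins were read from a list of 23 genes, all tested. In OE with Dox against OE without Dox 1 was higher and 3 were lower, with a median log2 fold of -0.19. DNMT3B, a de novo DNA methyltransferase, fell from 283 ± 16.4 to 115 ± 14.1 (log2 fold -1.30, SE 0.19, limma adjusted p = 3.4e-05). CBX5, which encodes an HP1 protein, fell from 4621 ± 250 to 3226 ± 282 and the deacetylase gene HDAC1 from 719 ± 96.8 to 488 ± 24.2, while CBX3, another HP1 gene, rose from 1234 ± 55.3 to 1608 ± 74.4. TRIM28, the central corepressor, was at 2720 ± 313 and 2826 ± 533 (log2 fold 0.04, adjusted p = 0.86). In KO against WT 1 cofactor was lower, HDAC1, from 807 ± 78.7 to 571 ± 63.7, and in OE without Dox against WT 1 was higher, CHD3, from 1015 ± 53.3 to 1460 ± 187.

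In OE with Dox against WT 19 of 150 members were lower (12.7%, against 10.1% of all genes). Here limma called 0 higher (against 10.4% of all genes), as did edgeR and DESeq2. At an unadjusted p under 0.05, 2 members were higher, beside 2641 of all 17102 genes. Of the 19, 5 are among the 7 members that reach a mean of 50 only with WT (ZNF558, ZNF528, ZNF470, ZNF880 and ZNF90) and 14 are among the other 143. The share of members lower, set beside that of all genes, is therefore not read as a result. ZNF528 was lowest after ZNF558, at 95.7 ± 23.6 in WT and 11.7 ± 4.43 in OE with Dox (log2 fold -2.95). ZNF880, the gene before it on the chromosome, was at 71.9, 95.6 and 82.3 in WT and at 32.3, 38.1 and 32.3 in OE with Dox (log2 fold -1.25), while ZNF534, the gene after it, was at 18.1 ± 2.17 and 18.8 ± 2.60. The antisense gene ZNF528-AS1 was at 73.2 ± 32.9 for WT, 36.6 ± 18.6 for KO, 12.2 ± 2.18 for OE without Dox and 5.86 ± 1.93 for OE with Dox. Whether the counting used strand is not given in the sources used here, but the exons of ZNF528 do not overlap those of another gene.

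ZNF253 was at 165, 225 and 169.8 in WT and at 106, 69.7 and 39.6 in OE with Dox (log2 fold -1.46, SE 0.36, limma adjusted p = 0.0078), a call that held under every alternative run. ZNF90 was at 48.3, 76.0 and 65.0 in WT and at 25.9, 27.9 and 36.9 in OE with Dox. The count of 19 was 9 without WT replicate 2 or OE with Dox replicate 3, and 12 without WT replicate 3. The summed MGE markers were lower in OE with Dox than in WT, at 1955 to 2857 against 3018 to 3178, with 7 of 10 lower and 2 higher, and their part was not tested. The groups did not overlap in 3 members higher (16.1% of all genes) and 34 lower (15.4% of all genes). The 34 were not split by the members that reach the threshold on the mean only with WT. All comparisons with WT share its 3 libraries, and the fold of OE with Dox against WT adds the difference of OE without Dox from WT to that of Dox.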

How the data were processed

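RNA-seq of 14 libraries was analysed. The deposited values are a normalized signal, which the authors made by dividing gene read counts by 1 size factor per library. In each library the values are whole multiples of 1 step (0.866 to 0.947), and whole reads come out for 100.0% of them, within 0.01. DESeq2, hg38, HTSeq 0.9.1, TopHat2 2.1.1 and R 3.4.0 stand in the submitters' processing notes, with no roles given. Libraries were made with a NEBNext Ultra RNA kit per the labels. The annotation release and strand setting are not given in the sources used here. GENCODE 44 named 56948 of 58051 identifiers.

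Genes at 10 or more in at least 3 libraries (17102) were tested with limma 3.58.1 (R 4.3.3) on log2(value + 1), with 1 model of 4 groups, trend and robust empirical Bayes, two-sided, Benjamini-Hochberg at 0.05 per comparison. The pseudocount makes folds of low genes smaller than they are. Alternatives were pseudocounts of 0.5 and 5, no filter, a filter of 50, TMM, upper quartile, no robust option, sample quality weights, a replicate block, edgeR 4.0.16, DESeq2 1.42.0, the compared groups alone, each library left out and, added after seeing the data, a GC correction. Same-numbered libraries deviated together, by the rule that every pair's correlation of deviations exceeds 0.1, for OE with Dox and OE without Dox (0.220, 0.248 and 0.402) and for OE without Dox and WT (0.222, 0.175 and 0.283), which is a hint from the data since the labels give no pairing. In each of the other 4 pairs of groups at least 1 value was 0.1 or less. The highest correlation of all, 0.435, was between differently numbered libraries, WT replicate 1 and KO replicate 2. Floors of 3 reads cover counting error only, because PCR copies were not removed by molecular identifiers. Members share a median of 3.19% of their exonic 50-base words with other genes, and 15 members share over 20%, so their counts are less certain.

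The members, lists and tests were chosen with earlier results of these data known. Named genes are ZNF558, SPATA18, lost members, the 5 largest rises and falls per comparison among calls without overlap, the 5 of highest mean, the 3 steadiest, those beside the threshold, members with a library standing apart (up to 3), and cofactors called. Others are said to be chosen after their values were seen.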

Additional observations from a re-analysis of the deposited data

Results flagged for a closer look

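Among the 5 KO libraries, 1 library stood apart from the other 4 by Dixon's ratio (critical value 0.71) in 11 of 150 members (7.33%). KO replicate 1 was the highest library in 7 of them. The share over all genes was not computed and the members share the same 5 libraries, so no excess is read from that count. ZNF121 was at 937.574 in KO replicate 1 and at 612 to 688 in the others. ZNF274 was at 365.793 in KO replicate 1 against 285 to 292, and ZNF253 at 179.201 against 118 to 132. ZNF441, which is no member, was at 42.4911 in KO replicate 1 against 5.67 to 14.2. The groups of 3 were not tested for this.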

How the results depend on the processing

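Of 68 calls on named genes none changed sign under an alternative that gave a value. The 68 leave out the call of ZNF558, whose losses in KO against WT are among the counts of members below. They include genes chosen after their values were seen, such as ZFP28 and ZNF440. They also include ZNF470 and ZNF528 against WT, members that reach a mean of 50 only with WT. For those genes an unchanged sign is a description and lends no support. The members' median log2 fold for KO against OE without Dox was 0.02, and -0.01 without KO replicate 1 and -0.02 without OE without Dox replicate 3. The counts of members called moved as follows. For KO against WT the 7 higher became 3 with no filter, and the 1 lower became 0 with a pseudocount of 0.5, with no filter and with quality weights. For OE without Dox against WT the 1 higher became 0 with no filter and with the 2 groups alone, 2 with a pseudocount of 5, a filter of 50, TMM, upper quartile, quality weights or GC correction, and 3 with edgeR and with DESeq2. For OE with Dox against WT the 19 lower became 12 with the 2 groups alone. At a ratio of 0.1 the 1 member low in a line became 0. Leaving out 1 library at a time gave 2 to 9 higher and 0 to 1 lower for KO against WT, 0 to 4 higher and 0 to 4 lower for OE without Dox against WT, 0 higher and 14 to 35 lower for Dox, 0 higher and 9 to 19 lower for OE with Dox against WT, and 0 to 2 higher and 0 lower for KO against OE without Dox. It left 0 members lost and 1 low. With no filter the adjustment covers more genes, and with a library left out or 2 groups alone fewer samples enter the fit. Elsewhere the cause was not tested.

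In the comparisons where same-numbered libraries deviated together, the replicate block changed none of the 68 calls. It gave 35 members lower and 0 higher for Dox and 4 lower and 1 higher for OE without Dox against WT. In the others libraries share only a number. There, with the replicate block, the members lower in KO against WT became 4 (10 were higher), and those higher in OE with Dox against WT became 1. Of the 68 calls 6 were lost under the block, all in comparisons with KO, 7 with no filter and 7 with the 2 groups alone. Depth limits genes near the floor of 2.60 to 2.84, where ZNF229, ZNF582 and ZNF583 lie in the engineered lines.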
